A study of Saccharina japonica with 9 samples.

Results

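The mitochondrial genome of the kelp *Saccharina japonica* was examined cytosine by cytosine in whole-genome bisulfite sequencing (WGBS) of 3 life-cycle stages. All cytosines of the mitochondrial sequence that were listed as methylated in at least 1 of 9 libraries were taken, without any condition on their level. They number 12824 of the 30289287 cytosines listed anywhere in the genome, against 36312 in the chloroplast and 30240151 on nuclear scaffolds. The stages were haploid male gametophytes (MG) and haploid female gametophytes (FG), both 2 months old, and diploid sporophytes (SP), 4 months old, with 3 libraries each. All came from strain Ye-c12, and the whole body was taken. The gametophytes were propagated as clones from a sporophyte blade and the sporophytes were raised by crossing them, so the p-values below measure the spread between libraries of 1 strain. Stage, age and ploidy change together and cannot be told apart. DNA methylation holds no marker transcript, so the stage labels could not be checked against marker genes.

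Mitochondrial DNA of brown algae is a small circular molecule that encodes subunits of the respiratory chain, ribosomal proteins, ribosomal RNAs and tRNAs, and each cell holds many copies of it. In bisulfite sequencing an unmethylated cytosine is read as thymine and a 5-methylcytosine stays cytosine, so that methylated and unmethylated reads can be counted at each position. Cytosines are sorted by what follows them into the contexts CG, CHG and CHH, where H is any base but G. In land plants each context is maintained by its own methyltransferases. A cytosine that escaped conversion is counted in the same way as a methylated one. Reads from mitochondrial copies in the nuclear genome may also be counted, and their part was not tested.

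The listed positions ran from 8 to 37648, on a build of the mitochondrial sequence that is not given in the sources used here. Of the 12824 cytosines, 5363 lay on the plus strand and 7461 on the minus strand, and 9584 were CHH, 1844 CHG and 1396 CG. Coverage is known for listed cytosines only, and there it was deep in every library. Listed cytosines had a median coverage of 830, 922 and 1540 reads in MG, 822, 1141 and 1467 in FG, and 1003, 1138 and 1164.5 in SP (replicates 1, 2 and 3). A cytosine was listed when its methylated reads exceeded a background rate, and the rate set how many reads were needed. For CHH the rate was 0.0591% to 0.0704% in 8 libraries and 0.0175% in SP replicate 1, while for CG it was 0.25% to 0.302% in those 8 libraries and 0.0746% in SP replicate 1. In practice a CHH cytosine of median coverage needed 3 or 4 methylated reads and a CG cytosine 6 to 10 in those 8 libraries, against 2 and 3 in SP replicate 1. This listing floor touches each result below.

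The neighbourhoods of a few cytosines show what the later results turn on. No reference sequence was used, so the letters were read from the lists themselves: c where a cytosine of the printed strand was listed in any library, g where one of the other strand was, and n where neither was. The capitals mark the cytosine and the base before it. The first 2 belong to the 5 cytosines with the highest mean level over 9 libraries, of which 32008 is the one outside a poorly covered stretch, and the last 5 have the highest mean level over SP replicates 2 and 3, highest first, a choice made after their values were seen.
Plus strand 32008 (CHH): nngngggggGCnnncngngnn
Minus strand 7135 (CHH): ggnnnnnnnCCncccnccnnn
Minus strand 7223 (CHH): nnnnngcncNCnnnnnnnnnn
Plus strand 217 (CG): nngnggngnGCgnnngcnnnn
Plus strand 223 (CG): ngngcgnnnGCnnnnnnnngg
Plus strand 31806 (CG): nncngggggGCgnnngngnnc
Plus strand 6460 (CG): nnnnccnnnGCggngcgnnnn
The 5 plus-strand cytosines have a G directly before the C. Of the minus-strand cytosines, 7135 has a C there, and at 7223 the base before it is unknown, because neither strand was listed there. The place of 7223 as the highest in SP rests on 3 of 160 and 2 of 147 reads in SP replicates 2 and 3.

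The cytosine at position 32008 was listed in all 9 libraries. It had 27 of 1033, 18 of 1185 and 26 of 2172 reads methylated in MG (2.61%, 1.52% and 1.20%), 34 of 1054, 20 of 1385 and 22 of 1996 in FG (3.23%, 1.44% and 1.10%), and 2 of 432, 10 of 1354 and 9 of 1418 in SP (0.463%, 0.739% and 0.635%). Every gametophyte library was above every SP library, and the 95% Wilson interval of SP replicate 1, where 432 reads covered it, was 0.127% to 1.67%. Such intervals cover counting error only. The remaining 4 of the 5 cytosines with the highest mean level, at 7131, 7135, 7195 and 7203 on the minus strand, were not listed in SP. They sit in a poorly covered stretch, from 7008 to 7203, where 36 cytosines had a mean coverage under 100 reads in the gametophytes. At 7135 the levels rested on 2 of 32 reads in MG replicate 1, 1 of 26 in MG replicate 2, 1 of 49 in FG replicate 2 and 1 of 34 in FG replicate 3. The interval of the first of these was 1.73% to 20.1%. The order of these 4 positions is not resolved at this depth.

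The question of the stage comparison was whether mitochondrial cytosines followed the difference in methylation between gametophytes and sporophytes. Far fewer of them were listed in SP. MG libraries listed 9158, 9552 and 10730 cytosines, FG libraries 8886, 9478 and 10655, and SP libraries 3410, 704 and 772. The methylation level of the molecule was computed as the mean over all 12824 cytosines with unlisted ones at 0. It stood at 0.482%, 0.471% and 0.493% in MG, 0.461%, 0.394% and 0.462% in FG, and 0.0750%, 0.0222% and 0.0253% in SP. MG averaged 0.482% ± 0.011 and SP 0.041% ± 0.030 (SD, n = 3 each), 11.8 times as much, with no overlap (exact two-sided permutation p = 0.1, the smallest that 3 libraries against 3 allow). FG averaged 0.439% ± 0.039 against the same SP libraries, 10.8 times as much, again with no overlap (exact permutation p = 0.1). Without SP replicate 1 the SP mean was 0.0238%, and MG and FG were 20.3 and 18.5 times as high. MG exceeded FG by 0.043 percentage points without overlap (exact permutation p = 0.1), but with unlisted cytosines at the highest unlistable level the libraries overlapped (exact permutation p = 0.3), and without FG replicate 2 the difference was 0.020 points.

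The size of the fold depended on how unlisted cytosines were treated, because a level below the floor cannot be seen. Where an estimate needed the coverage of an unlisted cytosine, the median of listed ones on its strand in its 1-kb window was used. In SP replicates 2 and 3 these medians rest on 5.49% and 6.02% of the known cytosines. Window 16001 to 17000 held 4 listed cytosines in SP replicate 2. How far the estimates depend on this step was not tested. With unlisted cytosines at the highest level that would not have been listed, MG stood at 0.566% ± 0.018, FG at 0.521% ± 0.049 and SP at 0.229% ± 0.048 (SD, n = 3 each), ratios of 2.48 for MG over SP and 2.28 for FG over SP. A further estimate is the single level, shared by all cytosines, at which Poisson-distributed methylated reads give the number of cytosines listed. MG libraries had 0.515%, 0.491% and 0.492%, FG libraries 0.495%, 0.408% and 0.455%, and SP libraries 0.114%, 0.0947% and 0.0963%. On that scale the SP libraries lay close together although replicate 1 listed 3410 cytosines and the others 704 and 772, and MG and FG were 4.91 and 4.45 times as high as SP. A single level does not describe SP replicates 2 and 3, however. There, cytosines preceded by G stood at 0.201% and 0.208% on this scale and all others at 0.0335% and 0.0344%, against 0.123% and 0.112% in SP replicate 1. The closeness of the SP libraries and these ratios rest on that assumption. With at least 4 methylated reads required per cytosine, MG averaged 0.437%, FG 0.40% and SP 0.0167%, so that MG and FG were 26.1 and 23.9 times as high as SP, and the MG and FG libraries overlapped (exact permutation p = 0.4). Read-weighted over listed cytosines alone, MG and FG were 1.75 and 1.63 times as high as SP, and MG and FG again overlapped (exact permutation p = 0.4). SP was below both gametophyte stages without overlap under each of these 5 treatments, while the fold ran from 1.63 to 26.1.

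**Figure D1:**
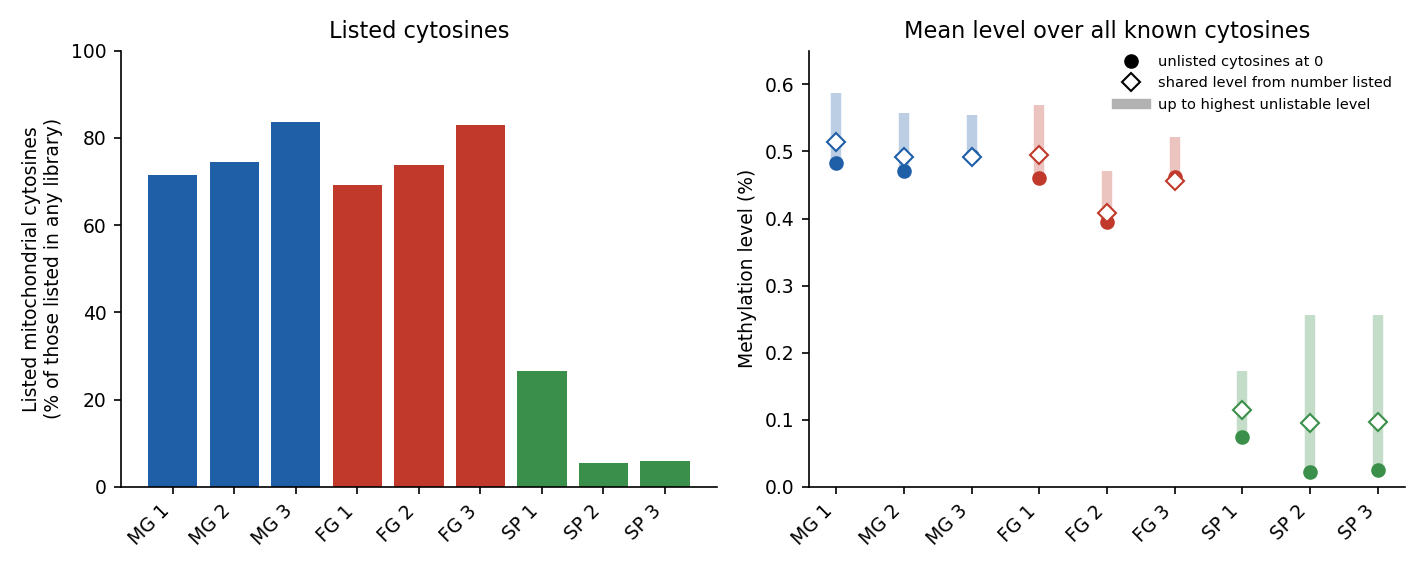
Share of the 12824 known mitochondrial cytosines listed in each library (left, %) and mean methylation level (right, %), with circles for unlisted cytosines at 0, diamonds for the shared level and pale bars reaching the highest unlistable level. The 6 gametophyte libraries sit between 0.394% and 0.493% and the SP libraries between 0.0222% and 0.0750% (circles).

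Mitochondrial cytosines methylated at high level were absent from the lists. A listed cytosine had a median level of 0.615%, 0.576% and 0.538% in MG, 0.602%, 0.483% and 0.506% in FG, and 0.248%, 0.351% and 0.365% in SP. The highest single value was 6.90%, in MG replicate 1, and no cytosine passed 10% in any library. Cytosines above 2% numbered 21, 21 and 14 in MG, 23, 4 and 12 in FG, and 3, 0 and 0 in SP. In all, 4522 cytosines were listed in all 6 gametophyte libraries, 2997 of them in no SP library, while 83 were listed in SP and in no gametophyte. Over the 4522, site levels correlated between gametophyte libraries with Pearson's r from 0.35 to 0.52 (median 0.41 within stages and 0.41 between stages, 15 pairs). The points are cytosines of 1 molecule that share base composition and coverage, so r is a description.

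Levels in the gametophytes differed between classes of neighbouring bases. CHH cytosines preceded by C and followed by a base not listed as C and then by C had the highest level. The 341 of them stood at 0.858%, 0.844% and 0.880% in MG, 0.821%, 0.766% and 0.852% in FG, and 0.0683%, 0% and 0% in SP. The 256 CHH cytosines inside a run of 4 C (preceded by C and followed by C and C) stood at 0.334%, 0.331% and 0.371% in MG, 0.301%, 0.266% and 0.322% in FG, and 0.0981%, 0% and 0% in SP. The first class was thus above the second in each of the 6 gametophyte libraries and below it in SP replicate 1. On the shared-level scale the first class stood between 0.563% and 0.684% in the 6 gametophyte libraries and the second between 0.314% and 0.407%. Over all contexts, the 3194 cytosines preceded by C averaged 0.595% ± 0.037 in the gametophytes, against 0.418% ± 0.043 for the 2366 preceded by G and 0.415% ± 0.032 for the 7264 with neither listed before them (SD over 6 libraries). In the chloroplast the same classes averaged 0.668%, 0.438% and 0.442% over these libraries. These classes were formed after the values were seen, so they are given without a test.

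**Figure D2:**
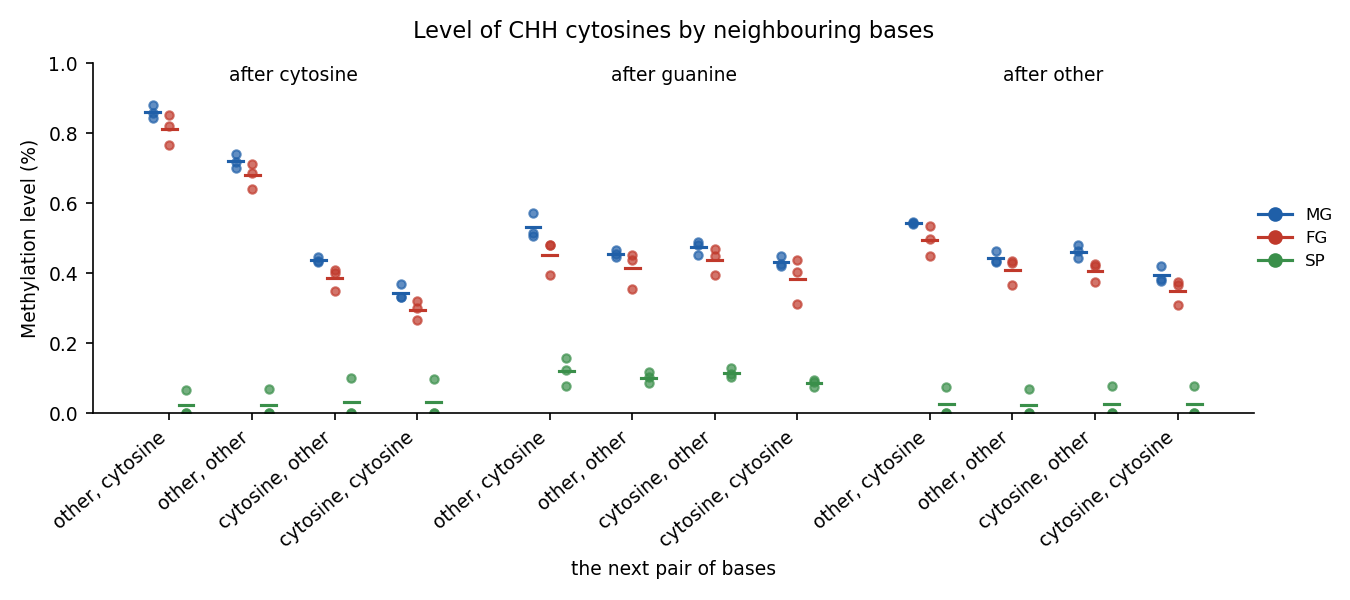
Level (%) of CHH cytosines of the mitochondrion by the base before them (column group) and the next pair of bases (axis), with a point per library and a bar at the mean of MG, FG and SP. Gametophyte levels run highest after cytosine with another base and then a cytosine next, from 0.766% to 0.880%, and SP points other than those after guanine reach 0.101% at most.

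In SP replicates 2 and 3 the listed cytosines were nearly all preceded by G. Of 704 listed mitochondrial cytosines in SP replicate 2, 669 were preceded by G (95.0%, 95% Wilson interval 93.2% to 96.4%), and of 772 in SP replicate 3, 732 were (94.8%, 93.0% to 96.2%). Such cytosines, written GpC, make up 18.4% of the 12824. A preceding G is known only where its opposite cytosine was listed in any library, so the other cytosines may include some GpC. In the other libraries their share of the list was near that value, at 18.9%, 18.3% and 18.0% in MG, 18.5%, 17.7% and 18.2% in FG, and 20.3% in SP replicate 1. The same holds when counted the other way. SP replicates 2 and 3 listed 28.3% and 30.9% of the 2366 GpC cytosines but 0.335% and 0.382% of the 10458 others. SP replicate 1 listed 29.2% of the GpC cytosines and 26.0% of the others. Of the 2395 CHH cytosines preceded by C, SP replicates 2 and 3 listed none, which allows a share of up to 0.125%.

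In all 3 SP libraries the level over GpC cytosines was of similar size, at 0.0842%, 0.112% and 0.126%, while that over the others was 0.0729%, 0.0019% and 0.0026% (replicates 1, 2 and 3). Within a library and context, GpC and other cytosines of like coverage had the same floor to pass. On the shared-level scale, which allows for the floor, GpC cytosines stood at 0.123%, 0.201% and 0.208% and the others at 0.112%, 0.0335% and 0.0344%. All 3 contexts took part: SP replicates 2 and 3 listed 28.4% and 32.7% of GpC cytosines in CHH, 33.9% and 31.5% in CHG, and 19.8% and 18.7% in CG, where more reads were needed. GpC is its own complement, so each site has a cytosine on both strands. In SP replicate 2, 24.2% of the GpC sites listed on the plus strand were also listed on the minus strand, where 26.2% of all GpC sites were, and in SP replicate 3 it was 23.2% against 28.7%. The listing of a strand thus went with no higher rate on the other.

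SP replicates 2 and 3 also shared individual sites. Of their GpC cytosines, 248 were listed in both. They were 37.1% of those in replicate 2, where replicate 3 listed 30.9% of all GpC cytosines, and 33.9% of those in replicate 3, where replicate 2 listed 28.3% of all. All 36 cytosines listed in all 9 libraries were GpC. The cytosine at 217 (printed above) had 12 of 765, 7 of 821 and 13 of 1579 reads methylated in MG, 10 of 775, 11 of 1061 and 16 of 1423 in FG, and 14 of 996 and 14 of 924 in SP replicates 2 and 3, and was not listed in SP replicate 1. At 1.41% and 1.52% those SP libraries were within the range of the gametophytes, 0.823% to 1.57%. The cytosine at 31806 was not listed in SP replicate 1 either, and stood at 0.772% and 0.929% in SP replicates 2 and 3 against 0.732% to 0.937% in MG and 0.831% to 1.56% in FG. The cytosine at 6460 stood at 0.936% and 0.710% in SP replicates 2 and 3, against 0.595% to 1.17% in MG and 0.874% in FG replicate 1, and was not listed in the remaining libraries. The cytosine at 223 was listed in SP replicate 1 with 3 of 925 reads (0.324%), against 1.27% and 1.25% in SP replicates 2 and 3. These cytosines were picked for high levels in SP replicates 2 and 3. Their nearness to gametophyte levels there comes with that choice and is no sign of sharing.

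The pattern was not particular to the mitochondrion. In the chloroplast 94.9% and 93.4% of the cytosines listed in SP replicates 2 and 3 were preceded by G, against 16.7% to 19.0% in the other 7 libraries. On nuclear scaffolds, where a preceding G is known only if its opposite cytosine was listed, the share was 10.5% and 10.5% in SP replicates 2 and 3 and 3.75% to 4.64% in the other 7 libraries. The split runs between replicates of 1 stage that carry the same labels, and what sets SP replicate 1 apart from replicates 2 and 3 was not tested.

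**Figure D3:**
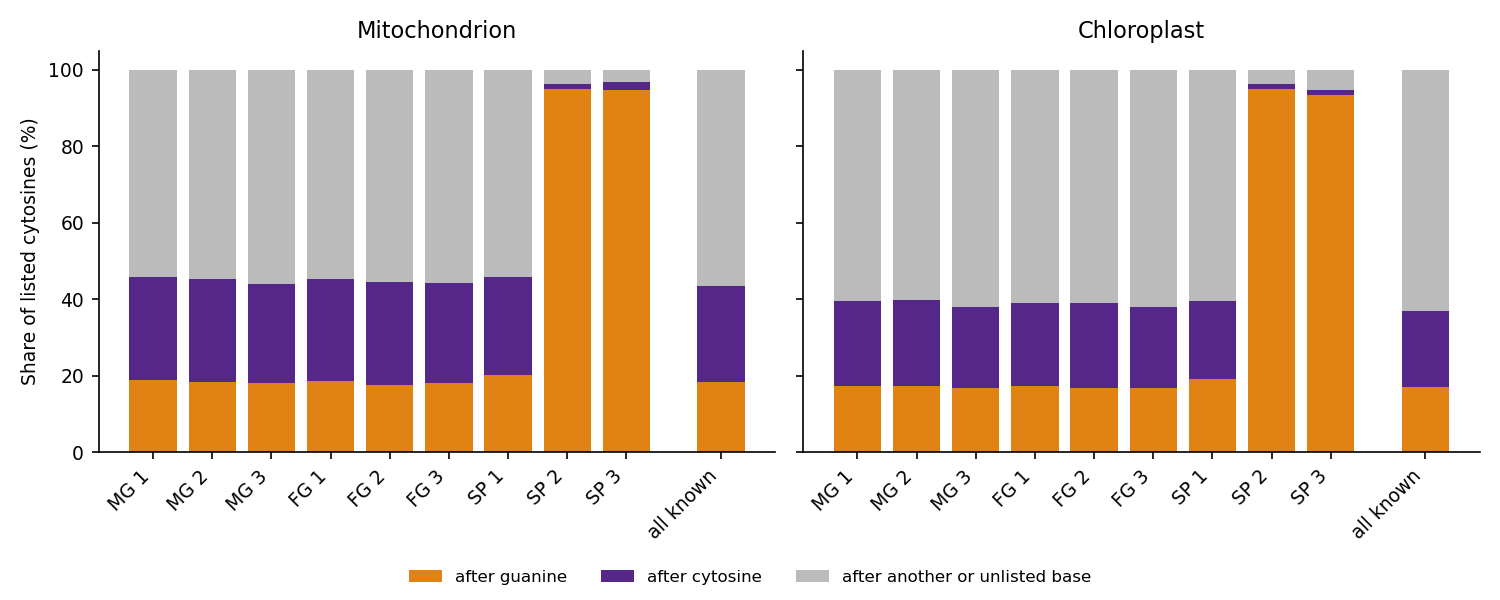
Share (%) of the listed cytosines of each library by the base before them, in the mitochondrion (left) and the chloroplast (right), with the composition of all known cytosines at the far right of each panel. In SP replicates 2 and 3 cytosines after guanine take 95.0% and 94.8% of the mitochondrial list, against 17.7% to 20.3% in the other libraries.

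Along the molecule the level was even in the gametophytes. Across 38 windows of 1 kb, levels ranged from 0.427% to 0.60% in MG replicate 1, 0.425% to 0.542% in MG replicate 2 and 0.445% to 0.542% in MG replicate 3. They ranged from 0.397% to 0.515%, 0.336% to 0.455% and 0.420% to 0.507% in FG replicates 1, 2 and 3, and from 0.0542% to 0.0958%, 0.00999% to 0.0364% and 0.0123% to 0.0418% in SP replicates 1, 2 and 3. The highest window was at most 1.40 times the lowest in a gametophyte library, 1.77 times in SP replicate 1, and 3.65 and 3.41 times in SP replicates 2 and 3. The mean of MG was highest in window 7001 to 8000, which holds the poorly covered stretch (0.549%), and lowest in 35001 to 36000 (0.444%). The mean of FG was highest in 30001 to 31000 (0.486%) and lowest in 1 to 1000 (0.396%), and that of SP was highest in 24001 to 25000 (0.0546%) and lowest in 16001 to 17000 (0.0295%).

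In SP replicates 2 and 3 the level of a window went with its share of GpC cytosines, which ranged from 8.84% to 27.4%. Pearson's r over the 38 windows was 0.65 and 0.77 in these libraries. It was 0.29 in SP replicate 1 and lay between −0.24 and 0.18 in gametophyte libraries. Window 16001 to 17000 held the lowest share, 8.84%, and 24001 to 25000 and 29001 to 30000 held 26.3% and 27.4%. Windows share libraries and coverage, so r is a description.

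**Figure D4:**
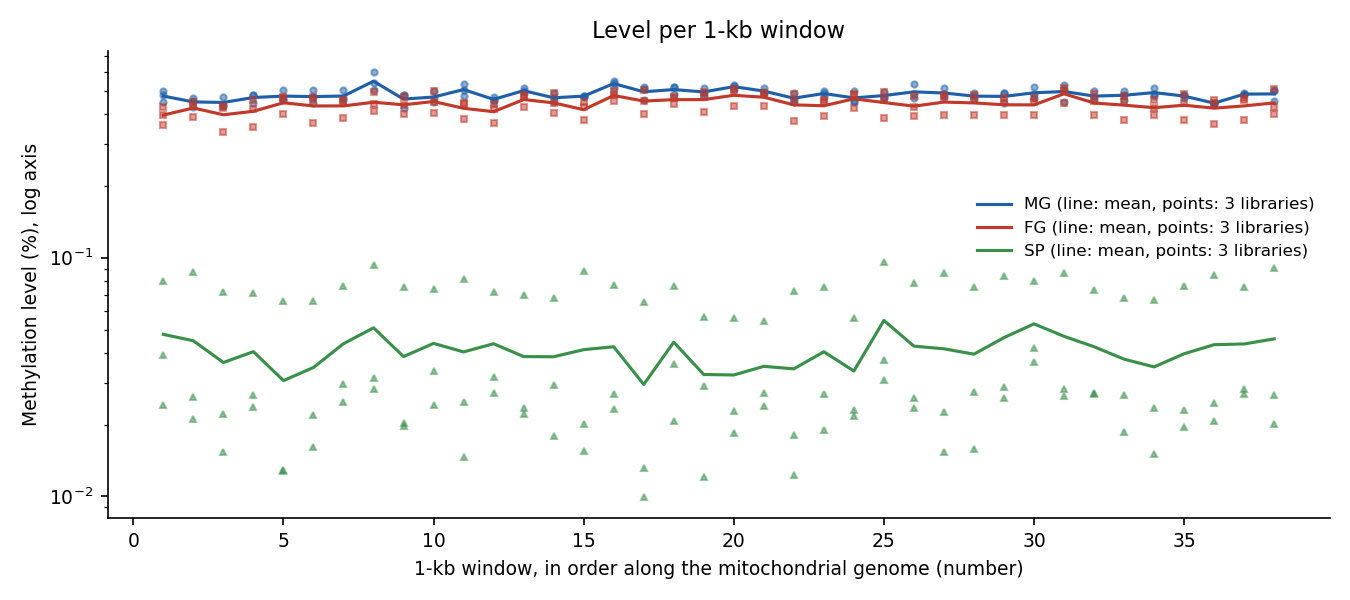
Methylation level (%, log axis) of the 38 mitochondrial 1-kb windows in order along the molecule, with points for libraries and lines for stage means. The MG and FG lines run between 0.396% and 0.549% and the SP line between 0.0295% and 0.0546%, with SP replicate 1 above the others in each window.

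All 38 mitochondrial windows were higher in MG than in SP and in FG than in SP. The quasi-likelihood test of edgeR was applied to the methylated reads of all windows of the genome, each scaled by its coverage and its number of known cytosines, with a Benjamini-Hochberg adjusted p below 0.05. Against SP, 38 of 38 windows were called higher in MG, beside 93.4% of the 239140 windows tested, and none lower (0.00711% of all windows). The median log2 fold change was 3.61 for the mitochondrial windows and 2.08 for all windows. For FG against SP, 38 of 38 were called higher, beside 89.0% of 237070 windows, and none lower (0.00970%), with a median of 3.48 against 1.92 over all windows. A called share of 38 in 38 is thus near that of the windows tested. The medians over all windows hold only windows listed in every SP library, and nuclear cytosines were covered far less deeply. The mitochondrial medians are therefore not directly comparable with them. Each of the 38 windows also had no overlap between libraries in either comparison, as did 87.2% of all windows for MG against SP and 79.7% for FG against SP. Without SP replicate 1 the medians were 4.40 for MG against SP and 4.25 for FG against SP.

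The 3 windows with the largest change were shared by both comparisons, which use the same SP libraries. Window 16001 to 17000 stood at 0.517%, 0.459% and 0.511% in MG, 0.505%, 0.401% and 0.454% in FG, and 0.0652%, 0.00999% and 0.0132% in SP. Its log2 fold change was 4.15 (SE 0.70, edgeR adjusted p = 8.16e-06) for MG over SP and 4.03 (SE 0.66, edgeR adjusted p = 1.15e-05) for FG over SP. Without SP replicate 1 these values were 5.37 and 5.25. Windows 19001 to 20000 and 4001 to 5000 followed with 4.10 and 4.01 for MG over SP and 3.98 and 3.91 for FG over SP. Relative to the level of each library's own mitochondrial genome, 3 windows were called higher in MG than in SP and 2 lower, where 0.00795% of all windows were called higher and 30.6% lower. These 5 windows were also called for FG against SP, with 0.0127% of all windows higher and 31.7% lower. Those higher were 16001 to 17000, 4001 to 5000 and 19001 to 20000, with log2 changes of 0.74, 0.61 and 0.45 for MG over SP, and those lower were 24001 to 25000 and 29001 to 30000, with −0.45 and −0.46. The GpC share of these 5 windows was 8.84%, 11.3%, 17.7%, 26.3% and 27.4%, in the order given. Its part in these calls was not tested.

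No mitochondrial window or cytosine was called between MG and FG. The fitted log2 fold changes of MG over FG ran from 0.01 to 0.26 with a median of 0.12, against a median of 0.16 over all windows tested, but with mapped reads as library sizes in place of coverage the mitochondrial median was −0.04. None of the 38 passed the adjusted threshold in edgeR, limma or DESeq2, where edgeR called 0.00665% of 436302 windows higher in MG and 0.000229% lower. At an unadjusted p under 0.05, edgeR and limma each gave 3 of the 38 and DESeq2 none, beside 7.21% of all windows in edgeR. This number moved with the setting. With a replicate block edgeR gave 15 of the 38, beside 29433 of 436302 windows. In 500-base windows it gave 13 of 76, beside 43938 of 675292, and with mapped reads as library sizes 0 of 38. No mitochondrial window passed the adjusted threshold in these settings. In 11 of 38 windows every MG library was above every FG library in methylated reads per coverage, against 9.43% of all windows. The largest change was in window 10001 to 11000, with 0.535%, 0.477% and 0.506% in MG against 0.445%, 0.383% and 0.441% in FG, a log2 fold change of 0.26 (SE 0.10, edgeR adjusted p = 0.48).

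Single cytosines gave the same picture. Most of the 22198 cytosines listed in all 6 gametophyte libraries were in organelles, 16373 in the chloroplast and 4522 in the mitochondrion. Their methylated and unmethylated reads were compared with edgeR's quasi-likelihood test. It called 0% of all cytosines tested and thus none of the mitochondrial ones, whose smallest adjusted p was 0.716, and a quasi-binomial model called none either. At an unadjusted p under 0.05 edgeR gave 132 mitochondrial cytosines higher in MG and 41 lower, 3.83% of those tested beside 4.30% of all cytosines. The quasi-binomial model gave 8 higher and 3 lower, beside 0.306% of all 22198 cytosines. These shares of all cytosines include the mitochondrial ones and are no measure of the nuclear genome. The fitted change was positive in 2748 of the 4522, with a median of 0.10 on the log2 scale.

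The plus and the minus strand had nearly the same level. The plus strand stood at 0.492%, 0.482% and 0.489% in MG, 0.475%, 0.387% and 0.458% in FG, and 0.0737%, 0.0275% and 0.0311% in SP. The minus strand stood at 0.475%, 0.462% and 0.496% in MG, 0.451%, 0.400% and 0.466% in FG, and 0.0759%, 0.0185% and 0.0211% in SP. The plus strand was higher in 5 of 9 libraries, by 0.0057 percentage points on average (exact sign-flip permutation over 9 libraries, p = 0.234, 0.281 adjusted over the 6 tests within libraries given here and below). The share of known cytosines listed was higher on the plus strand in 8 libraries, from 75.6% to 86.1% against 64.7% to 81.9% on the minus strand in the gametophytes, and lower in SP replicate 1, at 23.8% against 28.6%. Median coverage of listed cytosines was also higher on the plus strand in those 8 libraries, such as 990 against 740 reads in MG replicate 1. In SP replicate 1 it was 991.5 against 1006. Read-weighted over listed cytosines, the minus strand was higher in those 8 libraries, such as 0.697% against 0.627% in MG replicate 1. In SP replicate 1 it was lower, at 0.257% against 0.272%. The part of coverage in the strand differences of this paragraph was not tested. With at least 4 methylated reads per cytosine the plus strand was higher by 0.0274 points (exact permutation p = 0.00781), and on the shared-level scale it was higher in 9 of 9 libraries, by 0.0158 points (exact permutation p = 0.00391).

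Which context was higher turned on how unlisted cytosines were counted. Over all known cytosines CHH stood at 0.504%, 0.493% and 0.519% in MG, 0.481%, 0.419% and 0.488% in FG, and 0.0778%, 0.0198% and 0.0228% in SP. CHG was close to it, at 0.515%, 0.497% and 0.510% in MG, 0.50%, 0.410% and 0.483% in FG, and 0.0776%, 0.0257% and 0.0265% in SP. CG stood at 0.287%, 0.281% and 0.289% in MG, 0.273%, 0.206% and 0.257% in FG, and 0.0525%, 0.0344% and 0.0406% in SP. CHH exceeded CG by 0.145 percentage points on average, in 7 of 9 libraries (exact sign-flip permutation p = 0.0195, adjusted 0.0293), but with the floor of CG applied to all contexts the mean difference was −0.0258 points (exact permutation p = 0.00781) and on the shared-level scale it was −0.104 points (exact permutation p = 0.00391). CHG exceeded CG by 0.147 points (exact permutation p = 0.0156, adjusted 0.0293), and its difference was −0.0273 and −0.0939 points under the same changes (exact permutation p = 0.00391 each). A CG site has a cytosine on both strands, yet 743 were known on the plus and 653 on the minus strand, with 537 sites known on both. CG cytosines listed in no library are thus missing from the known number, which raises the CG level on each scale of this paragraph. Their part in the reversed sign was not tested, and those missing in CHH and CHG could not be counted. The listed share was 75.8%, 79.1% and 89.2% of CHH cytosines in MG, against 30.4%, 32.7% and 37.5% of CG cytosines. At CG sites listed on the plus strand, the other strand was listed in 25.0% to 35.1% of cases in the gametophytes, where 25.9% to 33.5% of all these sites were listed on the minus strand.

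The tRNA genes were set apart because DNMT2, the only methyltransferase family the study names in this genome, is known for methylating tRNA. Their cytosines showed no difference from the rest of the molecule beyond the spread over libraries. For 24 loci, 75 bases from the position named in the study's tRNA list were taken on both strands, 800 cytosines in all. Their level over the 9 libraries was 0.317% on average, against 0.321% for the other cytosines, a difference of −0.0036 points (exact sign-flip permutation p = 0.414), and it was 0.0058 points with the 75 bases centred on that position (exact permutation p = 0.117). Locus means in MG ranged from 0.412% to 0.556%, those in FG from 0.320% to 0.493%, and those in SP from 0.0146% to 0.0660%. In each of the 24 loci every SP library was below every gametophyte library, as in all 38 mitochondrial windows and in most tested windows of the genome (87.2% for MG against SP and 79.7% for FG against SP). The highest mean over 9 libraries was that of tRNA-Ser at 33228 to 33302, with 0.532% ± 0.027 in MG, 0.493% ± 0.034 in FG and 0.048% ± 0.014 in SP. The lowest was that of tRNA-Phe at 3922 to 3996, with 0.422% ± 0.051 in MG, 0.320% ± 0.042 in FG and 0.025% ± 0.019 in SP (SD, n = 3 each). A locus holds 25 to 40 known cytosines, and in 8 loci SP replicate 2 listed none of them.

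**Figure D5:**
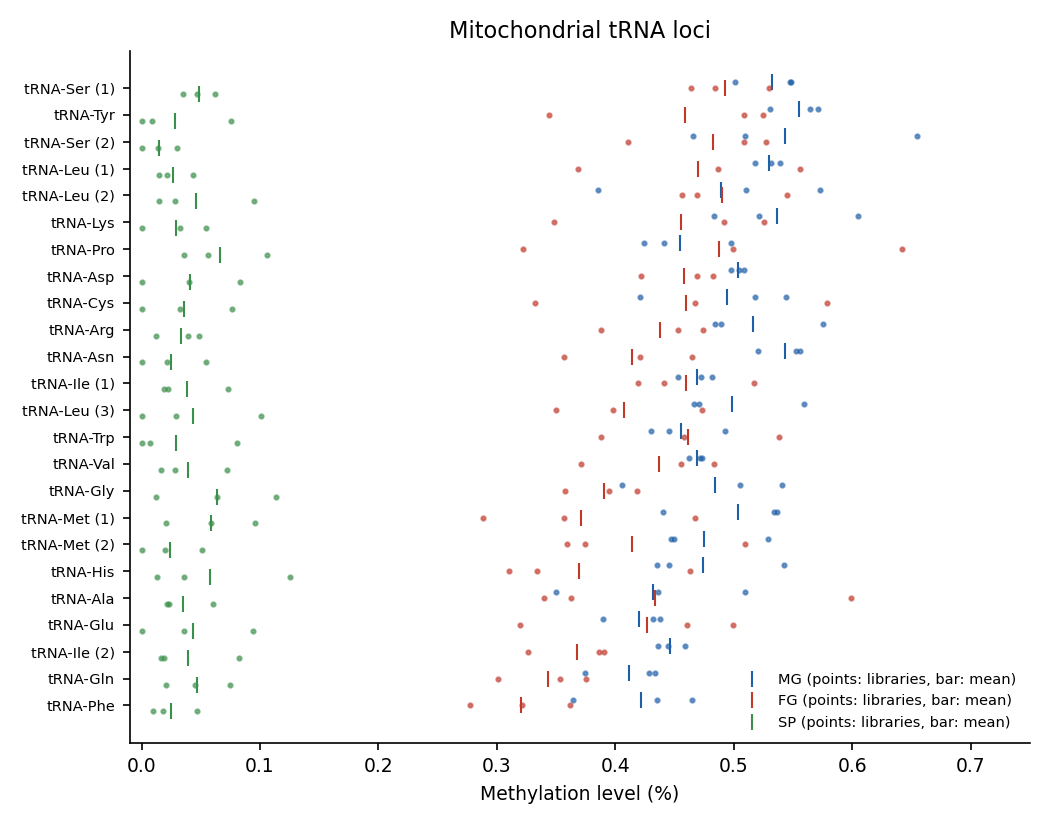
Methylation level (%) of the 24 mitochondrial tRNA loci, in order of their mean over 9 libraries, with points for libraries and bars for stage means. SP points reach 0.126% at most and lie below the gametophyte points of the same locus.

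The mitochondrion and the chloroplast had similar levels in each library. The mitochondrial level was below the chloroplast level in all 9 libraries, with a mean log2 ratio of −0.085 (SD 0.034, exact sign-flip permutation p = 0.00391, the smallest that 9 libraries allow, adjusted 0.0117). On the shared-level scale the log2 ratio lay between −0.04 and 0.10 and had no common sign. On the first scale the MG libraries had −0.066, −0.029 and −0.069, against −0.114, −0.105 and −0.092 in FG and −0.147, −0.072 and −0.071 in SP. The MG libraries lay above both the FG and the SP libraries, by means of 0.05 and 0.04 (exact permutation p = 0.1 each, the smallest possible), and FG and SP overlapped. On the shared-level scale MG, at 0.0165 to 0.0244, stayed above FG, at −0.0104 to 0.0157, with almost no gap. It did not stay above SP, where replicate 1 had 0.096 and replicates 2 and 3 had −0.006 and −0.039. Read-weighted over listed cytosines, the mitochondrial level was far below that of nuclear scaffolds, with a log2 ratio of −4.35 in the mean of 9 libraries (exact permutation p = 0.00391, adjusted 0.0117). Listed nuclear cytosines had a median coverage of 7 to 9 reads, where a single methylated read gives a level above 10%. The listing thus sets a high level on the nuclear side, and this test cannot decide whether the genomes differ. Against nuclear cytosines with at least 500 reads the mean log2 ratio was −0.447 (exact permutation p = 0.0273), with the mitochondrion higher in 1 library. Among nuclear cytosines with at least 500 reads the read-weighted level stood at 0.697%, 0.673% and 0.657% in MG, 0.678%, 0.605% and 3.99% in FG, and 0.232%, 0.508% and 0.508% in SP, beside mitochondrial values of 0.660%, 0.619% and 0.576% in MG, 0.653%, 0.526% and 0.547% in FG, and 0.262%, 0.394% and 0.405% in SP.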

How the data were processed

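WGBS was measured in 9 libraries, 3 each of MG, FG and SP, and samples were grouped by their labels. The authors aligned the reads with Bismark (version not given here), removed duplicates and deposited, per library, the counts of methylated and unmethylated reads at each cytosine, the methylation level as a fraction and a p-value with its corrected value. The deposited lists hold cytosines covered by 5 reads or more, of which 1 or more were methylated, whose corrected p-value lay below 0.05, so an unlisted cytosine is either unmethylated, below the floor or uncovered. The study's text names a threshold of 4 reads per methylated cytosine and does not say whether methylated reads are meant. As a minimum of methylated reads the deposited lists do not apply it, and it was tried as an alternative. The background rates were recovered from the deposited p-values and counts.

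Mitochondrial rows were joined by position and strand. The level of a library is the sum of the deposited fractions over listed cytosines divided by 12824, and is printed as a percent. Levels were compared with exact permutation tests, and differences within libraries with exact sign-flip tests over 9 libraries. Windows of 1000 bases were kept if they reached 10 methylated reads in sum and held a listed cytosine in each library compared. They were fitted over the whole genome with edgeR 4.0.16 (quasi-likelihood, offset by coverage and known cytosines), with limma 3.58.1 and DESeq2 1.42.0 as alternatives, in R 4.3.3. All other steps used Python 3.11.15, and the tests across windows and sites were run on simulated data first. The p-values are adjusted by the Benjamini-Hochberg method over all windows or cytosines tested. The members, lists and alternatives were chosen with earlier results of these data known. Replicate numbers did not pair the libraries.

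Positions named are the 5 cytosines of highest mean level, per comparison the 3 called windows with the largest change without overlap, the windows and the tRNA loci with the highest and lowest means, and the 5 highest cytosines of SP replicates 2 and 3, the 5 windows called on the relative scale and the MG against FG window of largest change, all chosen after their values were seen. tRNA positions come from the names in the study's own tRNA list. Alternatives changed the read and coverage minimums, the treatment of unlisted cytosines, the scaling, the window length and the libraries included. No mitochondrial genome sequence or gene annotation was used here.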

Additional observations from a re-analysis of the deposited data

Results flagged for a closer look

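The difference in level between cytosines preceded by G and all others had opposite signs in gametophytes and sporophytes. It was negative in each MG and each FG library and positive in each SP library. Its mean was −0.0493 percentage points in MG and 0.0815 in SP, a gap of −0.131 for MG against SP. In FG the mean was −0.0544 points, a gap of −0.136 against the same SP libraries. The difference between stages was not tested. On the shared-level scale the sign was positive in MG replicate 1 too, with 0.518% after G and 0.514% elsewhere, and it stayed negative in the other 5 gametophyte libraries and positive in SP. In SP replicate 1 the sign is the same but the size smaller, with 0.0842% after G and 0.0729% elsewhere, against 0.112% and 0.0019% in SP replicate 2.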

How the results depend on the processing

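Of 184 alternatives to the main results, 168 kept the direction and the side of the threshold, or a count within 1.5 times. This number includes the level comparisons between stages, whose smallest possible p of 0.1 or 0.25 keeps them above 0.05 by construction. For these only a change of direction could have shown. For MG against FG the exact permutation p rose from 0.1 to as much as 0.4 in alternatives counted as kept. Those that treat unlisted cytosines otherwise, apply the floor of CG to all contexts or leave out cytosines preceded by G were chosen after seeing the data. The strand difference passed 0.05 with at least 4 methylated reads (0.0274 points), in CHH only (0.0115) and on the shared-level scale (0.0158). CHH minus CG was −0.0258 points under the floor of CG, −0.104 on the shared-level scale and −0.238 read-weighted, and CHG minus CG was −0.0273, −0.0939 and −0.247. The tRNA difference was 0.0058 points with centred loci. The cause of these changes was not tested, except that the floor of CG changes the floor by construction. For MG against SP and for FG against SP, 76 windows of 500 bases, 19 of 2000 bases and 5 relative to the library's own level were called, the first pair because windows differ in number. Leaving out 1 library each time left 38 windows called in both comparisons with SP and 0 for MG against FG. Level differences then ranged from 0.432 to 0.458 points (MG against SP), 0.387 to 0.421 (FG against SP) and 0.0202 to 0.0543 (MG against FG). With a replicate block, 38, 38 and 0 windows and 0 cytosines were called, and levels had an exact sign-flip p of 0.25, the smallest that 3 pairs allow. Same-numbered libraries did not deviate together, with correlations from −0.31 to 0.24, and 4 of 18 were closest to their own number. Depth limits what is seen in SP, where a level under the floor counts as 0.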

Other observations

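At listed cytosines the mitochondrion was covered less deeply than the chloroplast in each library. The log2 ratio of median coverage averaged −0.14 in MG, −0.46 in FG and −0.62 in SP. The MG and SP libraries did not overlap in this ratio (exact permutation p = 0.1, the smallest that 3 against 3 allow). Copy number of either genome and recovery of its DNA cannot be told apart in these values.

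Window levels correlated between gametophyte libraries with Pearson's r over 38 windows from 0.09 (MG replicate 2 and FG replicate 1) to 0.67 (MG replicate 3 and FG replicate 2). Between gametophyte and SP libraries r ran from −0.25 (FG replicate 1 and SP replicate 3) to 0.30, and within SP from 0.32 to 0.50. Windows share coverage and base composition, so these are descriptions.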
